A study of Mus musculus with 32 samples.

Results

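Sorted glioma cells of 5 Rebound mice were compared with those of 5 Vehicle mice across all genes of the deposited table, using 10 of the 32 RNA-seq libraries of the series. The 10 libraries were chosen by their labels, cell type TC and stage Rebound or Vehicle. Gliomas were raised in XFM mice, a strain that the labels do not describe further, by injecting DF-1 cells into the brain at 5 to 6 weeks of age. DF-1 is a chicken fibroblast line, and these cells carried PDGFB, so every tumour, Vehicle included, was started by this growth factor. Mice entered the trial at a tumour volume of 20 to 40 mm3 and were given vehicle or BLZ945, an inhibitor of the receptor CSF-1R, each day until symptoms or 26 weeks of age. Vehicle mice were 54359, 54363, 57098, 57682 and 64247, and the BLZ945-treated Rebound mice were 49041, 49059, 49692, 49827 and 49849. The labels name BLZ945 as the agent of every library, so treatment was read from the stage, and they give no further definition of Rebound. Cells freed with papain were sorted on PDGFRA as tumour cells (TC), beside CD11b+ Gr1- tumour-associated macrophages (TAM). Each library came from a different mouse.

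CSF-1R is the receptor through which the cytokines CSF1 and IL-34 keep macrophages and microglia alive, and PDGF-driven gliomas hold many of these cells. PDGFRA, the surface protein used for the sort, is the receptor for PDGF and marks oligodendrocyte progenitors, from which such tumours take much of their identity. It is also present on fibroblasts of the meninges and of blood vessels. The title of the series places IGF1 and its receptor IGF1R, which signal through PI3K, in resistance to CSF-1R inhibition. The comparison asks how tumour cells taken at Rebound differed from those of mice that never received the inhibitor.

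Total counts, as deposited, were 10.5 to 16.5 M in the Rebound and 13.1 to 23 M in the Vehicle libraries. The ribosomal precursor Rn45s took 5.15 to 7.15% of them in Rebound and 0.875 to 11.1% in Vehicle. Every count in the Rebound libraries was even, against 48.4 to 49.5% of the nonzero counts in Vehicle. This difference between the groups cannot be told apart from treatment. Totals and low counts of the groups may thus not be on the same scale, and why the counts were even was not tested. Y-linked genes marked mouse 49827 and Vehicle mice 54359, 54363 and 64247 as male and the other 6 as female, so sex moved with stage as well. Within each group no libraries agreed within sampling noise.

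Pdgfra itself was abundant in all 10 libraries but varied between mice. Its levels, in CPM (counts scaled to library size), were 1494, 2478, 2104, 534 and 2808 in Rebound mice 49041, 49059, 49692, 49827 and 49849, the order used for every Rebound gene. They were 1571, 447, 2837, 3675 and 1414 in Vehicle mice 54359, 54363, 57098, 57682 and 64247, the order used for Vehicle. The groups overlapped, and the log2 fold change of Rebound over Vehicle was -0.08 (edgeR quasi-likelihood test, adjusted p = 0.974).

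Library 49827 stood apart from the other Rebound libraries. Its 15 T and NK cell markers, genes of lymphocytes that the sort should leave out, had a mean of 7.40 log2 CPM, against -1.61 to 0.03 in the other 4 Rebound libraries and -1.35 to -0.39 in Vehicle. Its 16 myeloid markers, genes of macrophages and microglia, had a mean of 6.86, against 1.70 to 2.72 in the other Rebound libraries and 3.83 to 6.97 in Vehicle. The 12 genes of the tumour cell sort were lower in it, at 6.52, than in the other Rebound libraries, at 7.25 to 8.05. In single genes, Cd3e, a chain of the T cell receptor complex, was 634 CPM in 49827 and at most 6.13 in the other Rebound libraries. Results are therefore given without it as well as with it.

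**Figure D1:**
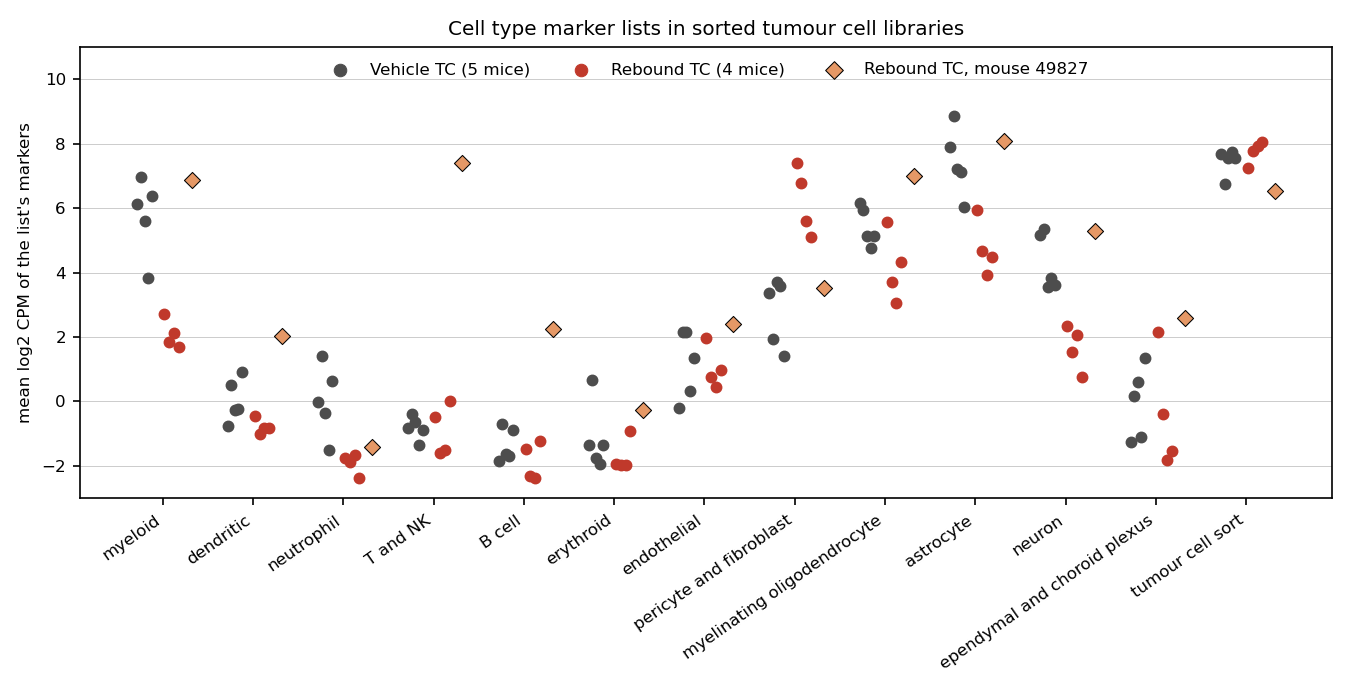
Mean log2 CPM of 13 cell type marker lists (y axis) in each tumour cell library, with dark points for Vehicle mice, red points for 4 Rebound mice and diamonds for Rebound mouse 49827. The diamond lies far above the other Rebound points for T and NK cells (7.40), and the red points lie below all Vehicle points for myeloid, astrocyte and neuron markers and above them for pericyte and fibroblast markers.

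The marker lists of other cell types also differed between the remaining 4 Rebound libraries and Vehicle. The summed level of the 16 myeloid markers was 84.8 to 175 CPM in the 4 Rebound libraries and 304 to 2939 CPM in Vehicle, with no marker at 0 in either group. The 8 astrocyte markers summed to 465 to 875 CPM in the 4 Rebound libraries and to 2570 to 16156 CPM in Vehicle, again with none at 0. The 11 pericyte and fibroblast markers went the other way, from 189 to 869 CPM in Vehicle to 1880 to 8181 CPM in the 4 Rebound libraries, with 265 CPM in 49827. Here 1 marker was at 0 in Rebound mouse 49059 and in each of Vehicle mice 54363 and 57098. In sorted bulk samples such as these, fewer cells of a type and less RNA per cell cannot be told apart.

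With all 5 Rebound libraries, 11 of 14985 genes tested passed an adjusted p of 0.05 (0.0734%): 6 were higher at Rebound (0.04%) and 5 lower (0.0334%). In all, 2243 genes had an unadjusted p under 0.05. Without 49827, 586 of 15221 genes passed (3.85%), 142 higher (0.933%) and 444 lower (2.92%), and the 11 genes were all among them. The median log2 fold change over all genes was 0.04 with all 5 libraries and -0.03 without 49827. With sex as a term in the fit without 49827, 175 genes passed, with 1734 at an unadjusted p under 0.05. With the mean level of the myeloid markers as a term 9 passed, with 1200. That level was 1.70 to 2.72 log2 CPM in the 4 Rebound libraries and 3.83 to 6.97 in Vehicle. The ranges did not overlap, so fits with this term separate marker level and stage poorly. Fitting only the 10 Rebound and Vehicle libraries, without those of the Endpoint stage, left 0 genes called with all 5 Rebound libraries, with 2366 at an unadjusted p under 0.05. In a separate alternative, DESeq2 on all stages called 679 genes with all 5 Rebound libraries. No filter on low counts was set before this fit, and the default filtering of DESeq2 was left on. The 11 genes were the only ones called by the edgeR fit with all 5 Rebound libraries, so every other gene described as higher or lower was called without 49827 and not with it.

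The other 4 Rebound libraries and 49827 differed in where they lay. Of the 142 genes called higher without it, 49827 itself lay above every Vehicle library in 50, within their range in 74 and below it in 18. Of the 444 called lower, it lay below every Vehicle library in 61, within in 303 and above in 80. When each other Rebound mouse was left out in addition to 49827, that mouse lay above every Vehicle library in 56 of 57, 78 of 84, 84 of 85 and 94 of 101 genes called higher. Leaving out 1 of these 4 mice while keeping 49827 called 0 to 5 genes higher. The results without 49827 thus describe the other 4 mice.

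The 6 genes higher with all 5 libraries were Col1a1, Col3a1, Nid1, Apod, Aldh1a2 and Tbx18. Col1a1 and Col3a1 encode the chains of the fibrillar collagens I and III, and Nid1 encodes nidogen, which links laminin to collagen IV in basement membranes. Apod encodes apolipoprotein D, a secreted lipid carrier of glia and of vessel-associated fibroblasts. Aldh1a2 encodes an enzyme that makes retinoic acid, and Tbx18 a T-box transcription factor of mural cells and of embryonic mesenchyme.

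The stretches before the start of 3 of these genes are shown because these genes moved together; the RefSeq table of GRCm38.p6 (mm10) held an entry for each. Each runs 5′ to 3′ on the strand of the gene over the 250 bases before the RefSeq start: Col3a1 at chr1:45311288-45311537 (plus strand), Aldh1a2 at chr9:71215539-71215788 (plus strand) and Tbx18 at chr9:87731261-87731510 (minus strand). Capitals mark matches, on either strand, to the CCAAT box (CCAAT), the GC box (GGGCGG) or the core bound by TEAD factors (CATTCC). They also mark the TATA box (TATAAA) and a form of the core of the metal response element (TGCACNC).
Col3a1: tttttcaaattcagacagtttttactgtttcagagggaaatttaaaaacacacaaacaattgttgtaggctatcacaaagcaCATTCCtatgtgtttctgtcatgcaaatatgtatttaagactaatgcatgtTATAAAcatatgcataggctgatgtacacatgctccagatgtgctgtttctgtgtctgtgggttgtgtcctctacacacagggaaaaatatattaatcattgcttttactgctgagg
Aldh1a2: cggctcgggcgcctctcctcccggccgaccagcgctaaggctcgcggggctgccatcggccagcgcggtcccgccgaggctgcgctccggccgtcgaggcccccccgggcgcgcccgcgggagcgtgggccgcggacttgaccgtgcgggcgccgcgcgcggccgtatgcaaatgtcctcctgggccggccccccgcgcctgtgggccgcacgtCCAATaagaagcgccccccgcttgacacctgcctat
Tbx18: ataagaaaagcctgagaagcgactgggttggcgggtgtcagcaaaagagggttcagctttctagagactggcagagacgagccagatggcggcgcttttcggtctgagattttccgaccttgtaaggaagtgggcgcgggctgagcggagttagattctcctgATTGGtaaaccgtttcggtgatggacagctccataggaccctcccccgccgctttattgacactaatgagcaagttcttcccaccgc
Col3a1 held 1 CATTCC and 1 TATAAA, and Aldh1a2 and Tbx18 each held 1 CCAAT, the latter on the reverse strand as ATTGG. No match overlapped another motif. Over the 32851 stretches of the same length in the RefSeq table, CCAAT was found in 33.8%, GGGCGG in 32.7%, CATTCC in 12.6%, TATAAA in 12.4% and TGCACNC in 10.4%.

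Col1a1 (chromosome 11, 94936224 to 94953042, plus strand) had the largest difference of the 6. Its levels were 1312, 465, 303, 9.73 and 104 CPM in Rebound and 0.72, 1.36, 7.35, 2.60 and 1.5 CPM in Vehicle. All 5 Rebound libraries lay above all Vehicle libraries, 49827 only narrowly. The log2 fold change was 7.32 with all 5 (edgeR adjusted p = 0.0308) and 7.63 ± 0.94 (SE) without 49827 (adjusted p = 0.000892).

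Nid1 (chromosome 13, 13437551 to 13512269, plus strand) was at 545, 165, 167, 12.3 and 94.4 CPM in Rebound and at 10, 7.59, 10.4, 9.27 and 8.66 CPM in Vehicle, again without overlap. Its log2 fold change was 4.42 (edgeR adjusted p = 0.0308) and, without 49827, 4.72 ± 0.50 (adjusted p = 0.000347). Apod (chromosome 16, 31296192 to 31314808, minus strand) was the most abundant in Vehicle, at 112, 72.6, 168, 107 and 73.9 CPM, and rose to 2183, 894, 725, 290 and 876 CPM. Here 49827, at 290 CPM, was clearly above every Vehicle library. The log2 fold change of Apod was 3.22 (edgeR adjusted p = 0.0308) and 3.45 ± 0.40 without 49827 (adjusted p = 0.000593).

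Col3a1 (chromosome 1, 45311538 to 45349706, plus strand) was at 2459, 784, 458, 27.0 and 282 CPM in Rebound and at 18.4, 13.7, 33.0, 13 and 2.17 CPM in Vehicle. Its groups overlapped through 49827 alone, and its log2 fold change was 5.64 (edgeR adjusted p = 0.0443) or, without 49827, 5.95 ± 0.76 (adjusted p = 0.00107). Aldh1a2 was at 151, 96.3, 45.0, 4.96 and 25.4 CPM in Rebound, above its 1.52 to 3.56 CPM in Vehicle. Tbx18 was at 67.8, 32, 20.9, 2.75 and 13.4 CPM, above 0.611 to 1.10 CPM in Vehicle. In all 6 genes mouse 49041 was the highest and 49827 the lowest.

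The 5 genes lower with all 5 libraries were Pfdn1, Foxred1 and the gene models 1810035L17Rik, Mir682 and Gm5506. Pfdn1 encodes a subunit of prefoldin, a chaperone that hands new actin and tubulin chains to the folding machinery, and Foxred1 a factor in the assembly of respiratory complex I. Foxred1 (chromosome 9, 35204206 to 35211055, minus strand) was tight within each group, at 23.4, 21.2, 25.4, 27.2 and 28.9 CPM in Rebound and 49.8, 58.8, 60.4, 58.9 and 53 CPM in Vehicle. Pfdn1 was at 29.6, 44.9, 25, 58.2 and 42.4 CPM in Rebound and 124, 103, 101, 93.8 and 143 CPM in Vehicle. In both genes 49827 lay with the other Rebound libraries, below all of Vehicle. The log2 fold change of Foxred1 was -1.15 (edgeR adjusted p = 0.0443) and that of Pfdn1 -1.50 (adjusted p = 0.0308). Reads of the Mir682 model may belong to an overlapping gene, since the counting program is not given in the sources used here.

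**Figure D2:**
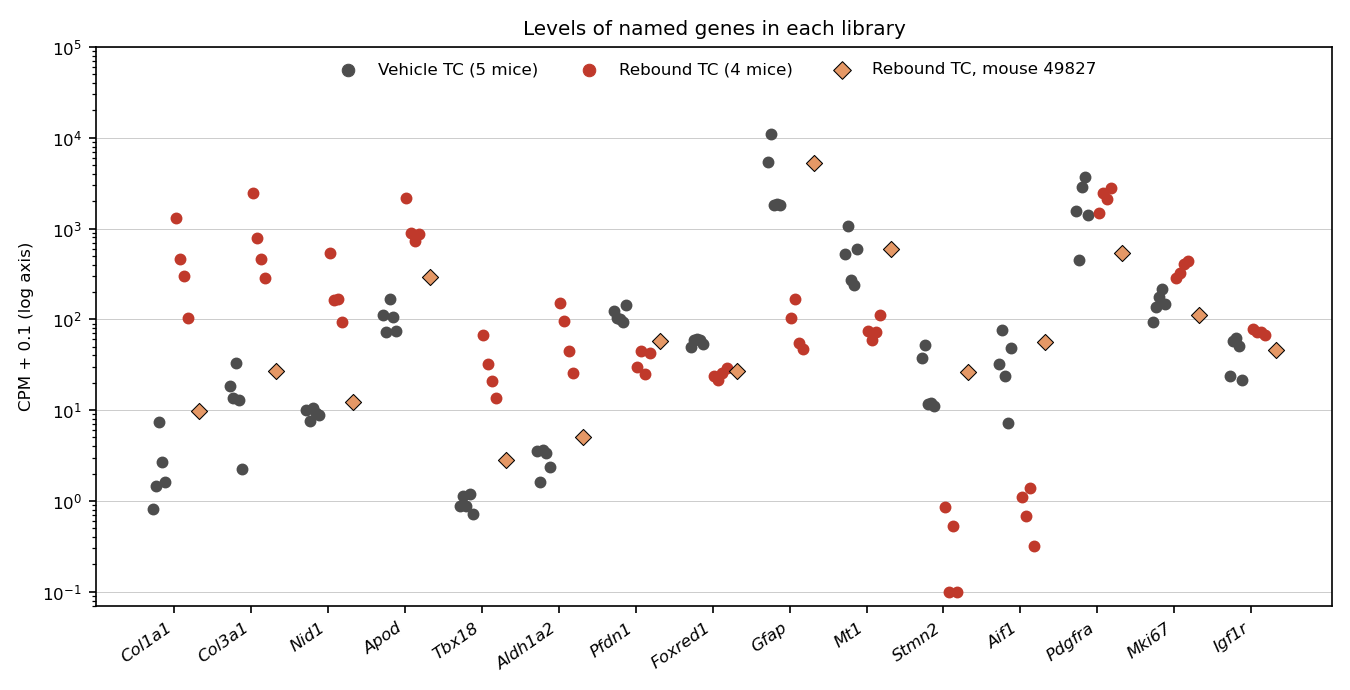
Levels of 15 genes in each library, as CPM plus an offset of 0.1 on a log axis, with dark points for Vehicle mice, red points for 4 Rebound mice and diamonds for mouse 49827. The diamond lies above all Vehicle points for Apod (290 CPM), among them for Gfap, Mt1, Stmn2 and Aif1, and with the red points below them for Pfdn1 and Foxred1.

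The collagens were part of a broad rise of extracellular matrix genes in the 4 Rebound libraries other than 49827. The matrix is the mesh of proteins and sugars around cells; in healthy brain it is rich in proteoglycans and poor in fibrillar collagen, which is found around vessels and in the meninges. Of the 33 matrix genes on the list, 18 were higher and 0 lower without 49827, with a median log2 fold change of 2.51. With all 5 libraries 2 were higher, 0 lower and the median was 2.22. The mean level of the list was 5.83 to 7.67 log2 CPM in the 4 Rebound libraries, 3.36 to 4.38 in Vehicle and 3.88 in 49827, so 49827 lay within Vehicle.

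Among the 11 collagen genes, 8 rose without 49827, with a median of 4.12. Besides collagens I and III these were Col1a2, the second chain of collagen I (5.50 ± 0.79, edgeR adjusted p = 0.00198), Col6a1, Col6a2 and Col6a3 of the beaded-filament collagen VI (4.49, 4.12 and 4.21), and Col4a1 and Col4a2 of basement membrane collagen IV (3.24 and 3.01). Col4a2 was at the threshold (adjusted p = 0.0495) and was lost in each of 9 fits with another library left out. Serpinh1, the chaperone that folds procollagen in the endoplasmic reticulum and not itself on the list, was at 568, 270, 263, 4.77 and 88.0 CPM in Rebound and 7.85, 15.5, 14.1, 12.6 and 13.8 CPM in Vehicle. Its log2 fold change without 49827 was 4.54 ± 0.49 (adjusted p = 0.000347).

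Of the 10 matrix glycoproteins, 6 rose: Postn, Lamb1, Fbn1, Fbln1, Lamc1 and Lama4. Postn encodes periostin, a collagen-binding protein of wound and tumour stroma, and was at 679, 173, 152, 12.1 and 80.9 CPM in Rebound and 8.57, 9.98, 6.15, 15.6 and 8.61 CPM in Vehicle. Without 49827, which lay within Vehicle, its log2 fold change was 4.79 ± 0.64 (edgeR adjusted p = 0.00131), and with all 5 it was 4.49 (adjusted p = 0.0512). Lamb1 and Lamc1 encode laminin chains of basement membranes and rose by 4.58 and 1.72. Tnc and Fn1, encoding tenascin C and fibronectin, had log2 fold changes of 1.82 and 1.29 that did not pass (adjusted p = 0.325 and 0.225). Tnc passed when the Endpoint libraries were left out of the fit (adjusted p = 0.0167).

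Of the 5 proteoglycan genes on the list, 3 rose. Lum, Dcn and Bgn encode lumican, decorin and biglycan, small proteoglycans that bind collagen fibrils. Lum was at 1564, 653, 531, 12.1 and 225 CPM in Rebound and 6.67, 0, 11.4, 30.9 and 2.11 CPM in Vehicle. The other 2, Vcan and Hapln1, belong to the hyaluronan matrix of the brain itself and did not pass, with log2 fold changes of 1.94 and -2.73 (edgeR adjusted p = 0.228 for both). Of 7 enzymes and inhibitors, Mmp2, a gelatinase, rose (2.88), and the collagen cross-linking enzymes Lox and Loxl2 did not pass (adjusted p = 0.0839 and 0.0716). Lox passed without the Endpoint libraries (adjusted p = 0.0455).

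**Figure D3:**
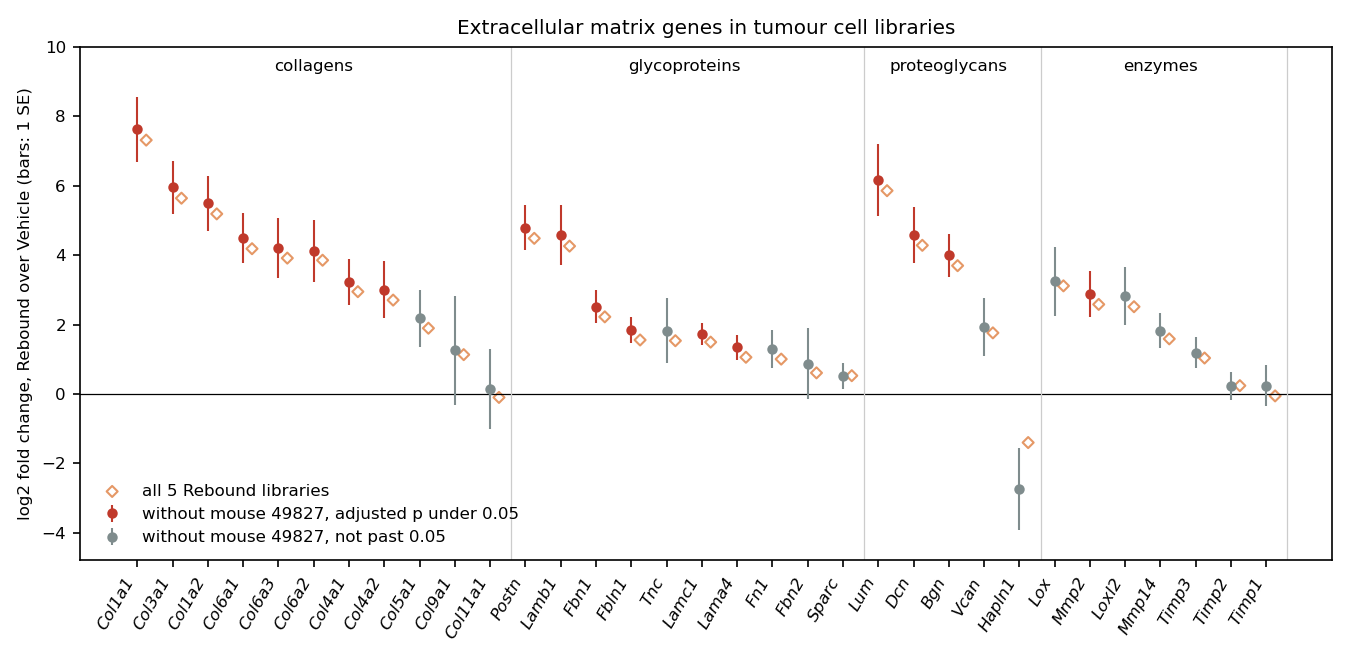
Log2 fold change of Rebound over Vehicle (y axis) for the 33 extracellular matrix genes, grouped by role. Filled points are without mouse 49827 with bars of 1 SE, red where the adjusted p was under 0.05 and grey otherwise, and open diamonds are with all 5 Rebound libraries; 18 points are red, all above 0, and only Hapln1 lies well below 0.

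The pericyte and fibroblast markers moved with the matrix genes. Of 11 markers, 6 were higher without 49827, but 5 of these 6 (Col1a1, Col1a2, Col3a1, Dcn and Lum) are matrix genes themselves. The sixth, Pdgfrb, encodes the PDGF receptor of mural cells and fibroblasts. It was at 192, 153, 134, 9.55 and 74.3 CPM in Rebound and 8.44, 10.9, 9.09, 19.5 and 1.44 CPM in Vehicle (log2 fold change 3.81 ± 0.59 without 49827, edgeR adjusted p = 0.00221, and 3.51 with all 5, adjusted p = 0.0748). Markers of contractile mural cells did not pass: Rgs5 was at 5.41, 165, 0.641, 5.51 and 0.861 CPM in Rebound and 0.0555 to 5.10 CPM in Vehicle, and Acta2 was at 2.69 to 18.9 CPM in the 4 Rebound libraries and 0.722 to 9.11 CPM in Vehicle. The part of such cells in the rise of the matrix genes was not tested.

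Under alternatives the matrix result kept its direction but not always its calls. With each of 9 further libraries left out, 13 to 18 of the 33 matrix genes passed and 0 were lower. With sex as a term 12 passed, and with the myeloid marker level as a term 0 did, while the median log2 fold change was 2.35 and 3.22. The myeloid level moved with stage, as given above.

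Other secreted factors and surface proteins were higher in the 4 Rebound libraries. Spp1, encoding osteopontin, was at 3284, 3285, 1294, 65.9 and 1196 CPM in Rebound and 199, 478, 67.1, 17.4 and 274 CPM in Vehicle, with 49827 inside the Vehicle range. Its log2 fold change without 49827 was 3.45 ± 0.85 (edgeR adjusted p = 0.0337) and with all 5 it was 3.14 (adjusted p = 0.194), and the gene is also enriched in macrophages. The call of Spp1 was kept in 2 of 9 fits with another library left out and lost with sex as a term (adjusted p = 0.401). Apod, Col15a1 and Spp1 were among the genes called higher without 49827 that still passed with the myeloid marker level as a term.

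Il34, the second ligand of CSF-1R, rose by 2.49 ± 0.57 without 49827 (edgeR adjusted p = 0.0212), with 94.8, 38.0, 32, 4.22 and 28.7 CPM in Rebound and 5.39 to 13.3 CPM in Vehicle. With all 5 libraries its adjusted p was 0.173, with sex as a term it was 0.130, and 6 of 9 fits with another library left out kept the call. Csf1, the other ligand, was at 37.1 to 99.4 CPM in the 4 Rebound libraries and 18.7 to 43.0 CPM in Vehicle and did not pass (0.85, adjusted p = 0.389). Of the 16 macrophage-directed ligands and checkpoint genes tested, 1 more passed: Mif, a cytokine, was lower (-1.28, adjusted p = 0.0283). The call of Mif was kept in 2 of 9 fits with another library left out and lost with sex as a term (edgeR adjusted p = 0.198). Developmental signals with a single member higher were Bmp4 (3.64), the hedgehog-binding protein Hhip (2.20), the Notch ligand Jag1 (1.99) and the semaphorin and VEGF receptor Nrp1 (1.52). All 4 lost their call with sex as a term.

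Astrocyte genes were lower in the 4 Rebound libraries. Gfap, encoding the intermediate filament of astrocytes (chromosome 11, 102887336 to 102900912, minus strand), was at 104, 166, 55.3, 5338 and 47.0 CPM in Rebound and 5456, 11050, 1800, 1875 and 1806 CPM in Vehicle. Mouse 49827 lay inside the Vehicle range and the other 4 far below it, so the log2 fold change was -1.95 with all 5 (edgeR adjusted p = 0.466) and -5.56 ± 0.81 without 49827 (adjusted p = 0.00198). Of the 14 genes on the astrocyte list, 9 were lower without 49827 and 0 higher, with a median of -2.20, and with all 5 libraries 0 were lower, with a median of -1.15. Among them were the metabolic enzymes Aldoc (-3.27), Aldh1l1 (-4.19) and Glul (-2.40), the water channel Aqp4 (-3.18) and the glutamate transporter Slc1a2 (-1.43). With sex as a term 5 of the 14 were lower, and Aqp4 and Slc1a2 lost their calls (edgeR adjusted p = 0.0684 and 0.127). The glutamate transporter Slc1a3 and the gap junction gene Gja1, which progenitor-like glioma cells can also express, did not pass (-0.24 and 0.17, adjusted p = 0.643 and 0.901).

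The metallothionein genes Mt1 and Mt2, which encode small metal-binding proteins abundant in astrocytes, fell with them. Their upstream stretches are shown because these are neighbouring genes with known metal response elements; both are on chromosome 8, plus strand, as 250 bases before the RefSeq start in GRCm38.p6, Mt1 at chr8:94178839-94179088 and Mt2 at chr8:94172368-94172617. Capitals mark the same motifs as above.
Mt1: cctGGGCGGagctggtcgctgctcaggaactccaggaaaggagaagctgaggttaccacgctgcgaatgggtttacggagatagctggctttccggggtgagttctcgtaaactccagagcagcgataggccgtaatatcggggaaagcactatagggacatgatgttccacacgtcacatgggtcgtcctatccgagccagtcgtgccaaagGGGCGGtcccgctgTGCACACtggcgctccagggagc
Mt2: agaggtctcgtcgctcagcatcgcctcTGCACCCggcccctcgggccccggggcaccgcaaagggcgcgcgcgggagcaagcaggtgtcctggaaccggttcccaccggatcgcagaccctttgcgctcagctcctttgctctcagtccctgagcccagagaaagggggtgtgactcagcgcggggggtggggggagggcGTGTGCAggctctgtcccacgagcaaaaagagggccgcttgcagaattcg
Mt1 held 2 GGGCGG and 1 TGCACNC, and Mt2 held 2 TGCACNC, 1 on each strand. Only this form of the metal response core was searched, so other forms of it are not marked or counted. Mt1 was at 73.8, 59.3, 72.1, 596 and 113 CPM in Rebound and 528, 1064, 270, 239 and 596 CPM in Vehicle. Mt2 was at 8.18, 12, 4.91, 77.1 and 13.2 CPM in Rebound and 82.3, 178, 39.7, 32.9 and 91.1 CPM in Vehicle. In both genes 49827 lay inside the Vehicle range and the other 4 Rebound libraries below all of it. The log2 fold change without 49827 was -2.76 ± 0.41 for Mt1 (edgeR adjusted p = 0.00200) and -3.14 ± 0.48 for Mt2 (adjusted p = 0.00221), and with all 5 neither passed (adjusted p = 0.233 and 0.201).

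Neuronal genes were lower in the same 4 libraries. Of 9 neuron markers, 6 were lower without 49827, with a median of -3.20, and with all 5 libraries 0 were lower, with a median of -0.91. However, the summed level of the 9 overlapped, at 240 to 633 CPM in the 4 Rebound libraries and 308 to 592 CPM in Vehicle. With sex as a term 1 of the 9 passed, with a median of -2.82. Kif5a, a neuronal kinesin, was at 405, 158, 198, 4834 and 132 CPM in Rebound and 2510, 4490, 1086, 1591 and 1117 CPM in Vehicle (-3.27 ± 0.46 without 49827, edgeR adjusted p = 0.00149, and -0.91 with all 5, adjusted p = 0.654). Nefl, Camk2a and Snap25, encoding a neurofilament, a synaptic kinase and a vesicle fusion protein, fell by 4.20, 4.06 and 1.33 on the log2 scale. These 3 lost their call with sex as a term (edgeR adjusted p = 0.0578, 0.127 and 0.0761). Crym, encoding a thyroid hormone-binding protein, had 4 counts in all over the 4 Rebound libraries, against 14.9 to 174 CPM in Vehicle and 24.4 CPM in 49827 (adjusted p = 0.000347 without 49827). Of the glutamate receptor and synapse genes, Gria1 was lower (-4.01) and Gria4, which oligodendrocyte progenitors also express, was higher (2.17). Gria1 was called in 9 of 9 fits with another library left out and Gria4 in 2 of 9, and with sex as a term Gria4 lost its call (adjusted p = 0.149).

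Myelin genes were mixed. Mbp, encoding myelin basic protein, was at 1353, 594, 239, 15930 and 766 CPM in Rebound and 11060, 17050, 3290, 2155 and 3314 CPM in Vehicle (-3.32 ± 0.61 without 49827, edgeR adjusted p = 0.00654, and -0.97 with all 5, adjusted p = 0.661). The call of Mbp was kept in 9 of 9 fits with another library left out and lost with sex as a term (edgeR adjusted p = 0.0676). Mobp and Bcas1 were lower as well (-3.77 and -1.41) and stayed called with that term. Ugt8a, an enzyme of myelin lipid synthesis, was higher (2.11), a call kept in 3 of 9 fits with another library left out and lost with sex as a term (adjusted p = 0.190). Over the 15 genes of the myelin list, the median was -0.42 without 49827 and 0.38 with all 5. The 9 myelinating oligodendrocyte markers summed to 550 to 2851 CPM in the 4 Rebound libraries, 2737 to 17727 CPM in Vehicle and 17849 CPM in 49827.

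Myeloid transcripts, found in the sorted tumour cell libraries of both groups, were lower in the 4 Rebound libraries. Csf1r, the target of BLZ945, was at 13.1, 4.48, 5.45, 86.9 and 1.83 CPM in Rebound and 207, 281, 124, 31.2 and 165 CPM in Vehicle. Its log2 fold change was -2.86 with all 5 (edgeR adjusted p = 0.195) and -4.70 ± 0.80 without 49827 (adjusted p = 0.00467). Of the 16 myeloid markers, 14 were lower without 49827 and 0 higher, with a median of -4.27, and with all 5 libraries 0 were lower, with a median of -1.68. The remaining 2 were Tmem119, a microglial membrane protein (-0.20), and Ptprc, the leukocyte antigen CD45 (-1.16). The lysosomal protease gene Ctss, at 35.7, 20.4, 19.5, 693 and 10.9 CPM in Rebound and 418, 647, 285, 61.8 and 334 CPM in Vehicle, was 1 of 3 of the 13 MHC class II pathway genes that were lower. The others were H2-Oa (-3.77) and the costimulatory ligand Cd86 (-4.49). The median of the 13 was -1.51 without 49827 and 0.02 with all 5. Over all genes, 147 of the 444 called lower (33.1%) and 14 of the 142 called higher (9.86%) had at least 4 times the level in TAM, against 10.7% of genes tested. That ratio is the mean of the Vehicle and the Rebound ratio of TAM over TC. Rebound TC levels thus enter both the ratio and the calls, so these shares are no independent comparison.

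Genes of the translation and energy machinery were lower by smaller amounts. Of 40 cytosolic ribosomal protein genes, 11 were lower without 49827, 0 higher, and all 40 had a negative log2 fold change, with a median of -1.03. Of 39 nuclear genes for oxidative phosphorylation, 6 were lower and all 39 were negative, with a median of -0.84. Uqcrc1, a core subunit of complex III, was at 252, 254, 260, 256 and 243 CPM in Rebound and 613, 558, 532, 444 and 491 CPM in Vehicle, without overlap. Its log2 fold change was -1.06 with all 5 libraries (edgeR adjusted p = 0.0707) and -1.06 ± 0.24 without 49827 (adjusted p = 0.0211). Of 30 glycolysis and hypoxia genes, 4 were lower (Gpi1, Tpi1, Aldoa and Bnip3) and 0 higher, with a median of -1.18. With all 5 libraries 0 genes of these 3 lists passed, with medians of -0.76, -0.78 and -1.04.

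Transcript length moved with the contrast over all genes. In the shortest length class, up to 1785 bases, the median log2 fold change of 2752 genes was -0.51, and in the longest class, from 5141 bases, it was 0.31. In TAM the medians of these classes were -0.22 and 0.32. With another library left out, the ribosomal genes called lower numbered 0 to 33, the oxidative phosphorylation genes 0 to 13 and the glycolysis and hypoxia genes 0 to 5. The highest numbers came without Vehicle 57682. Without the Endpoint libraries 0 ribosomal genes passed, and with sex as a term 0 passed in each of these 3 lists. With the myeloid marker level as a term 0 passed as well, and the ribosomal median turned positive, at 0.34. That level also moved with stage. The part of transcript length in these differences was not tested.

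Of the 13 IGF genes tested in the tumour cells, 11 had a positive log2 fold change without 49827, with a median of 0.72, and 1 passed. Over all genes tested, 3.85% passed. The mean level of the IGF list was 4.88 to 5.59 log2 CPM in the 4 Rebound libraries and 4.68 in 49827, all above the 4.06 to 4.54 in Vehicle. Igf1 (chromosome 10, 87858265 to 87937042, plus strand) was at 9.82, 6.02, 1.81, 10.1 and 1.61 CPM in Rebound and 1.90, 6.71, 1.12, 1.66 and 3.33 CPM in Vehicle, with overlap (0.72 ± 0.74 without 49827, edgeR adjusted p = 0.674). Igf1r (chromosome 7, 67952827 to 68233668, plus strand) was at 78.5, 72.7, 72.5, 45.9 and 66.4 CPM in Rebound and 23.7, 58.0, 61.6, 51.1 and 21.5 CPM in Vehicle. The 4 Rebound libraries other than 49827 lay above all of Vehicle, yet the difference did not pass (0.75 ± 0.30, adjusted p = 0.197). The IGF gene that passed was Igfbp5, a secreted binding protein of IGFs, which was at 1261, 785, 359, 170 and 148 CPM in Rebound and 49.5, 104, 159, 45.2 and 14.8 CPM in Vehicle. Its log2 fold change was 2.87 with all 5 libraries (adjusted p = 0.113) and 3.10 ± 0.69 without 49827 (adjusted p = 0.0195). The call of Igfbp5 was kept in 6 of 9 fits with another library left out and lost with sex as a term (adjusted p = 0.123).

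Downstream of the receptor, 26 genes of PI3K, AKT and mTOR had a median of 0.09 without 49827. Among them 2 were lower, the leukocyte phosphatase gene Inpp5d (-4.48) and the ribosomal protein gene Rps6 (-1.02), and 0 higher. In macrophages of the same stages, by contrast, Igf1 rose, from 58.3, 12.7, 31.9, 78.5 and 46.3 CPM in Vehicle to 272 to 489 CPM in the 5 Rebound libraries (log2 fold change 2.99, edgeR adjusted p = 0.0272). The difference of 2.18 between the sorts did not pass (adjusted p = 0.289 without 49827).

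Of 22 oligodendrocyte progenitor genes, 0 passed with or without 49827, a count near that of all genes. Their median without 49827 was 0.53, but it was -0.60 with sex as a term, and limma-voom with sample weights called 3 higher. Olig2, a defining transcription factor, was at 35, 109, 64.4, 11.8 and 134 CPM in Rebound and 112, 94.7, 113, 117 and 140 CPM in Vehicle (-0.43 ± 0.94, edgeR adjusted p = 0.863). Among the Rebound libraries 49041, which had the highest matrix genes, was lower than the other 3 for Olig2 and for Ccnd1, a cyclin of early cell cycle (163 CPM against 1529 to 2612). Cdkn2a, the locus of the tumour suppressors INK4A and ARF, was at 5.92, 11.3, 12.5, 7.16 and 9.47 CPM in Rebound and 6.80, 3.67, 11.7, 4.89 and 12.5 CPM in Vehicle.

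Of 37 genes of G2/M and mitosis, 0 passed without 49827, with a median of 0.35. Of these 37, 28 were positive and 8 lay higher without overlap between the groups, against 725 of the 15221 genes tested. Without the Endpoint libraries 3 of the 37 were called higher, with limma-voom and sample weights 12, and with sex as a term 0, with a median of 0.01. Of 32 genes of G1/S and replication 0 passed, with a median of 0.01. Mki67, a proliferation marker, was at 287, 321, 403, 112 and 438 CPM in Rebound and 93.5, 138, 175, 214 and 147 CPM in Vehicle. Without 49827 its groups did not overlap, and the log2 fold change was 1.24 ± 0.48 (edgeR adjusted p = 0.169). It passed without the Endpoint libraries (1.25, adjusted p = 0.0226). Lists of p53 targets (24 genes), type I interferon (30), MHC class I (18), ERK feedback (17), cholesterol synthesis (20) and chaperones (21) each had 0 genes called without 49827. The 19 Wnt genes also had 0 calls, but 16 were positive and 3 lay higher without overlap. Their mean level was 3.26 to 3.99 log2 CPM in the 4 Rebound libraries and 3.02 in 49827, above 2.66 to 2.94 in Vehicle. ERK feedback genes varied within Rebound: Dusp6, a phosphatase induced by ERK, was at 49.2, 574, 8.54, 52.7 and 37.2 CPM, and at 219 to 420 CPM in Vehicle.

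**Figure D4:**
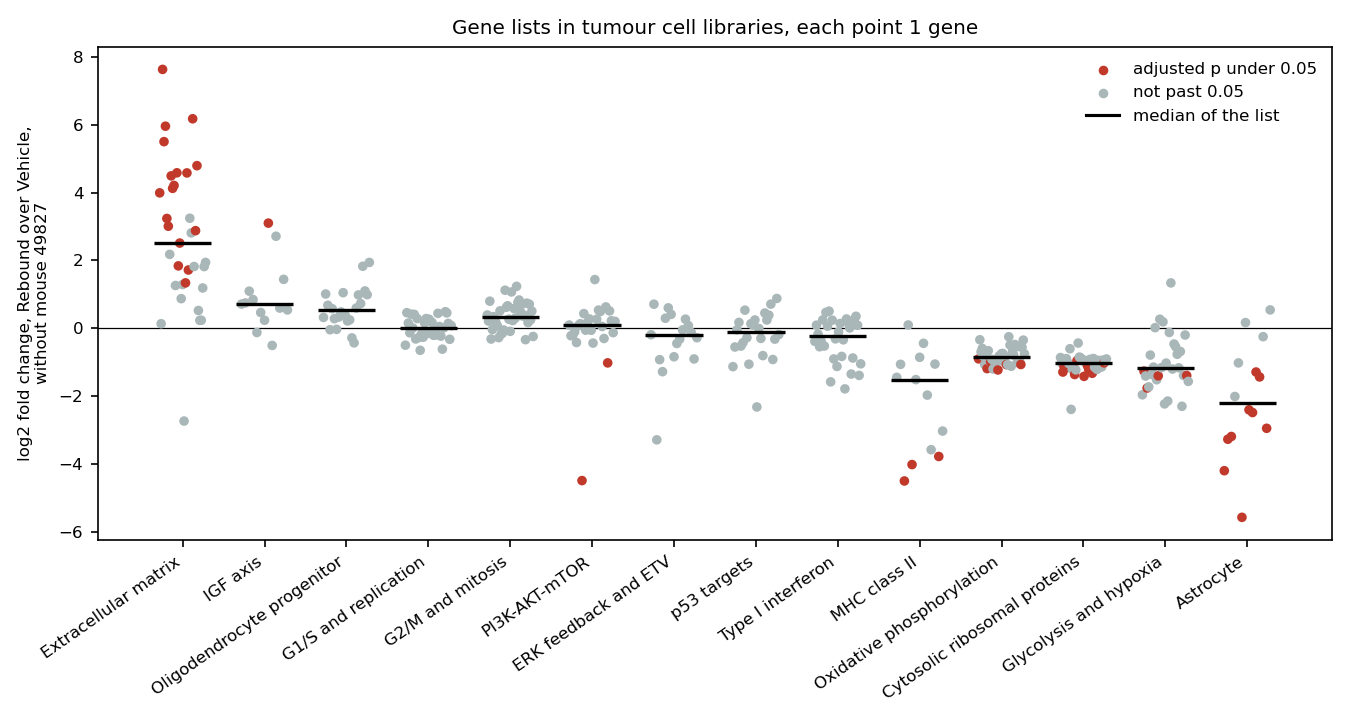
Log2 fold change of Rebound over Vehicle without mouse 49827 (y axis) for each gene of 14 lists, red where the adjusted p was under 0.05 and grey otherwise, with a bar at the median of each list. The medians run from 2.51 for extracellular matrix to -2.20 for astrocyte genes, and the progenitor, cell cycle, p53 and interferon lists hold no red point.

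TAM libraries were used to test where the difference between stages in TC departed from that in TAM. Such a test does not show which cells a transcript came from. A result that did not pass does not show a shared change. The test took the Rebound minus Vehicle difference in TC less that in TAM, with 5 TAM libraries a stage; Rebound TAM came from mice 49041, 49059, 49827, 49834 and 49849. With all libraries 81 of 15668 genes passed (0.517%), 31 of them higher in TC, and without TC library 49827 605 of 15908 passed (3.8%), 152 higher and 453 lower. With the mouse as a block, since 4 Rebound and 5 Vehicle mice gave both sorts, 4 genes passed (0.0255%) and, without TC library 49827, 171 (1.07%).

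Genes that rose in TC and differed from TAM included Col15a1, a collagen of basement membrane zones, at 289, 87.7, 38.9, 2.94 and 40.4 CPM in Rebound TC and 0.735 to 2.35 CPM in Vehicle TC. Its difference between the sorts was 6.24 on the log2 scale without 49827 (edgeR adjusted p = 4.93e-05, and 0.00992 with the mouse block). In TAM, Col15a1 was at 10.5 to 15.9 CPM in Rebound and 6.28 to 18.7 CPM in Vehicle, so in Vehicle it was higher than in TC. Pdgfrb (4.28), Scube1 (6.03), Mmp11 (5.27) and Mmp2 (2.87) also differed, and none of these 4 passed in TAM. Mmp11 and Mmp2 lost the call with the block (adjusted p = 0.0506 and 0.152). Gfap, Mt1, Mt2, Mbp, Aif1 and Fam107a, an actin-associated gene of astrocytes, fell in TC relative to TAM, by 6.56, 2.79, 3.64, 5.27, 5.23 and 6.86.

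Other genes rose in both sorts. Col3a1 rose in TAM by 5.16 (edgeR adjusted p = 0.00853), from 0.0895 to 1.49 CPM in Vehicle to 28.1, 28.8, 0, 31.6 and 14.1 CPM in Rebound, where 49827 was again the lowest library. Its difference between the sorts did not pass (0.85, adjusted p = 0.779). Apod rose in TAM by 4.22 (adjusted p = 0.000469), and Foxred1 fell by 1.09 (adjusted p = 0.00125) against a fall of 1.18 in TC without 49827. Levels of these matrix genes in TAM were far below those in TC. Of the 142 genes called higher in TC, 105 were tested in TAM, where 31 were higher and 4 lower. Of the 444 called lower, 407 were tested, 90 lower and 28 higher. Over all 12921 genes tested in both sorts, 919 were higher and 1009 lower in TAM. Bcas1 went in opposite directions, down by 1.41 in TC and up by 3.22 in TAM.

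**Figure D5:**
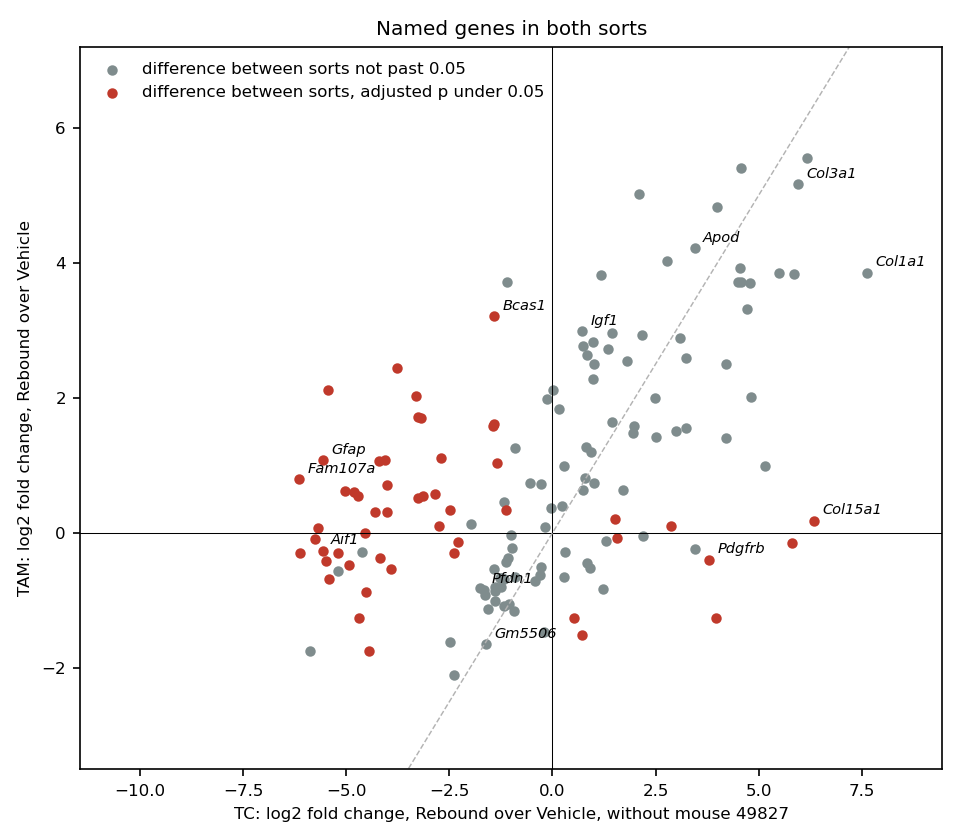
Log2 fold change of Rebound over Vehicle in tumour cells without mouse 49827 (x axis) against that in macrophages (y axis) for 147 named genes, with the dashed line where both are equal. Red points are the 51 genes whose difference between the sorts had an adjusted p under 0.05; Col3a1 and Apod lie near the line, Col15a1 and Pdgfrb right of it with macrophage values near 0, and Gfap and Aif1 left of it.

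Tumour cell libraries of the Endpoint stage, from 6 other BLZ945-treated mice whose tumours the labels call dormant, give another set of levels for the same genes. Col1a1 was at 19.7 to 179 CPM there, between most Vehicle and Rebound values, and Apod was at 151 to 374 CPM. Postn, at 2.79 to 20.3 CPM, and Spp1, at 31.9 to 380 CPM, overlapped Vehicle. Gfap was at 520 to 3162 CPM and Mbp at 20900 to 32490 CPM, while Pdgfra was at 57.9 to 550 CPM, below most Vehicle and Rebound libraries. The Endpoint mean was above the Vehicle mean for 110 of the 142 genes called higher at Rebound (77.5%). It was also above for 317 of the 444 called lower (71.4%), against 50.2% of genes tested. The same Vehicle libraries enter the calls and these shares, so the shares are no independent comparison. The T and NK markers, at 7.40 log2 CPM in Rebound 49827, were at 7.46 to 7.64 in Endpoint mice 49823, 49825, 49830 and 49831. They were at 0.72 in 49843 and -0.54 in 49845. Myeloid markers, at 6.86 in 49827, were at 6.63 to 9.27 in Endpoint. The correlation of log2 CPM between 49827 and Endpoint libraries was 0.69 to 0.85. It was 0.79 to 0.82 with Vehicle and 0.76 to 0.78 with the other Rebound libraries.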

How the data were processed

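The authors deposited whole-number counts of reads per gene symbol, without normalization, in a table of 23337 genes and 32 libraries. Per the labels' protocols, SMART-Seq libraries, an unstranded chemistry, were read on a HiSeq 2000 as 2 reads of 50 bases. The submitters' processing notes name STAR 2.3.0e, SAMtools and the build mm10. Which program counted the reads, and on which annotation, is not given in the sources used here.

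Counts were tested with edgeR 4.0.16 in R 4.3.3 (filterByExpr, TMM, robust glmQLFit, glmQLFTest, Benjamini-Hochberg over all genes tested, threshold 0.05). The 16 TC libraries entered 1 fit, so the stages share an estimate of spread, and the TC minus TAM difference came from all 32 libraries. Adjusted p values are those of edgeR. Levels are CPM after TMM scaling; list levels are means of log2 CPM with a prior count of 2. Total counts of 10.5 to 23 M per library set the precision of low genes, which the even counts of the Rebound libraries may overstate.

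The genes and lists were chosen with earlier results of these data known, so no test is given for a list. The rule for named genes took Igf1, Igf1r, Pdgfra, Csf1r, Cdkn2a and Olig2. It then took the 14 largest changes in each direction among genes called with and without 49827, with at least 10 CPM in the higher group, no overlap, no macrophage enrichment and no gene model name, likewise 6 lower and 3 higher macrophage-enriched genes, and up to 4 members of each list with the smallest p and those whose role is explained. This gave 5 higher and 2 lower genes, so the same rule was applied, after the data were seen, to the calls without 49827. The gene models and other genes outside the rule were also named after their values were seen. Macrophage-enriched means a log2 ratio of TAM over TC of at least 2, as the mean of the Vehicle and the Rebound ratio. Coordinates are from GENCODE M21 (GRCm38), which held 20915 of the symbols; upstream sequences are from RefSeq. The script's edgeR steps were tested on simulated data. Alternatives were another scaling, filters, DESeq2 1.42.0, limma 3.58.1 voom with sample weights, halved BLZ945 counts, covariates, the mouse block and each library left out. Rebound and Vehicle TC come from different mice, so that comparison has no pairs; the block applies to the comparison of sorts, where both libraries come from the same mouse. Some genes are not reported here.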

Additional observations from a re-analysis of the deposited data

Results flagged for a closer look

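Within groups of 5 libraries, the gap between the highest or lowest library and its neighbour, as a share of the whole range, was compared with Dixon's critical value of 0.71; chance passes it in about 1 of 20 groups. Of 122 groups, from 48 genes and 13 marker lists, 21 passed. In 17 of these the group was Rebound, and in all 17 library 49827 was the odd one. This library had been singled out beforehand and many of the genes were chosen from calls made without it, so the chance rate is no measure for these 17. It was the highest for the myeloid (0.804), dendritic (0.817), T and NK (0.818) and B cell (0.752) marker lists. It was also the highest for Crym (0.822), Kcne1l (0.847), Gfap (0.734), Sncb (0.9), Tuba4a (0.756), Fcrls (0.757), Cxcl13 (0.741), Aif1 (0.727), Fcgr3 (0.848), Tyrobp (0.759) and Ly86 (0.771). It was the lowest for C1qtnf2 (0.834) and Spp1 (0.741).

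The other 4 were in Vehicle. Mouse 54363 was highest for the erythroid markers (0.768) and lowest for the genes of the tumour cell sort (0.809). Mouse 57098 was highest for Fam180a (0.895), which was at 1.31 CPM or less in Vehicle, and mouse 54359 was lowest for Ccl11 (0.837).

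With all libraries, 3 reported genes differed between tumour cells and macrophages in their Rebound minus Vehicle change by the edgeR test of that difference. On the log2 scale the difference was 5.76 for Scube1, 5.92 for Col15a1 and -7.79 for Lcn2, which had 14 counts in all over the 4 Rebound tumour cell libraries other than 49827.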

How the results depend on the processing

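With all 5 Rebound libraries, the 11 genes called became 0 with only the 10 Rebound and Vehicle libraries and 679 with DESeq2. They became 1445 with voom and sample weights, 23 with a filter of 1 CPM in 5 libraries and 25 with halved BLZ945 counts. With the myeloid marker level as a term they became 0 (1540 at an unadjusted p under 0.05). They became 24 without macrophage-enriched genes and 2 with sex as a term. A fit of female mice only left out male 49827 and kept Vehicle mice 57098 and 57682. It called 53 genes, 1 of them among the 11, and is to be read beside the 586 called without 49827. With 1 library left out the 11 ranged from 0 (without Rebound 49692 or Vehicle 54359, 54363 or 64247) to 586. Without 49827, the 586 became 1404 with DESeq2, 1699 with voom, 9 with the myeloid term (4 of them among the 586), 384 without macrophage-enriched genes and 175 with sex, and with another library left out 277 (Rebound 49692) to 841 (Vehicle 57682). The 81 genes differing between sorts became 382 with DESeq2 and ranged from 36 (without TAM 49834) to 605. With a replicate block for the mouse they became 4, and 171 without TC library 49827. Counts under the remaining settings were within 1.5 times. Means of the T and NK and B cell marker lists, Rebound minus Vehicle, moved from 1.59 to -0.070 and from 0.32 to -0.50 without 49827.

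Cdh1 went from 0.76 to -5.69 without 49827. With the myeloid term, Tmem119 became 3.84, Rplp1 0.41 and Cxcl1 6.57. The cause of these changes was not tested. Tmem119 is 1 of the 16 markers averaged in that term, so its value there is not independent of the term. Of 115 named genes called without 49827, 62 stayed called with sex as a term and 4 with the myeloid term. Depth limits the folds of genes at a few counts per group, such as Crym, Lcn2 and Cxcl1.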

Other observations

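Tumour cell libraries of the 3 male Vehicle mice also held Xist, the RNA of the inactive X chromosome of female cells. Mice 54359, 54363 and 64247 had 34.0, 119 and 20.5 CPM of Xist beside 89.3, 58.0 and 81.6 CPM summed over Y-linked genes. Their TAM libraries had 3.13, 3.80 and 1.88 CPM of Xist beside 128, 110 and 154 CPM of Y-linked genes. Male library 49827 had 1.71 CPM of Xist in TC, and the female TC libraries of both stages had 261 to 548 CPM.

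Ccl11, encoding eotaxin, which draws eosinophils and is made by fibroblasts, was at 92.0, 119, 34.5, 1.65 and 24.8 CPM in Rebound and at most 2.22 CPM in Vehicle, with an edgeR adjusted p of 0.0137 without 49827. Ccl5, made by T cells, was at 2253 CPM in 49827 and at most 3.90 CPM in the other Rebound libraries. Other genes were near 0 in Vehicle: Fam180a, C1qtnf7 and Srpx had at most 1.31, 0.696 and 0.774 CPM there and at least 2.12, 3.01 and 4.38 CPM in the 4 Rebound libraries.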
